A study of Mus musculus with 2 samples.

Results

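The genes described here are the tumour necrosis factor (TNF) superfamily members that carry the family prefix in their symbol. Every symbol that starts with Tnfsf, for a ligand, or Tnfrsf, for a receptor, was taken, which gave 32 of the 32285 genes listed. They comprised 11 ligands, 20 receptors and Tnfsf13os, an RNA transcribed antisense to the ligand gene Tnfsf13. Droplet single-cell RNA sequencing had been run on mouse tumours grown from Hepa1-6, a hepatoma cell line, as 1 control library and 1 library from mice given CD147-LYTACs. A LYTAC is a chimaera that sends a surface protein to the lysosome, here CD147, the product of Bsg. Treated mice received 40 mg/kg every 3 days, 4 doses in all, and tumours were taken on day 12. The labels say of the other library only that it was the control. The labels do not state mouse strain, sex or age, what the controls were given, or the number of tumours per library. In both libraries cells without and with CD45, the surface marker of blood-derived cells, were sorted and then mixed at 1 part to 3 parts, so shares of cell types reflect that mixing.

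Ligands of the family are mostly membrane-bound trimers that one cell presents to the receptors of another. Receptors without a death domain recruit TRAF adaptors and switch on NF-kB, and several of them (OX40, GITR and CD137 among them) give T cells a second, costimulatory signal. Receptors with a death domain can start apoptosis, and decoy receptors bind a ligand without passing the signal on. The family is studied in tumours because agonists of the costimulatory receptors and of the TRAIL death receptor have been tried as therapies.

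There were 8150 control barcodes with 143495332 unique molecular identifiers (UMIs, counts of captured RNA molecules) and 9219 treated barcodes with 149812326 UMIs. Each cell was assigned to a type by lists of marker genes that contain no member of the family. 9 types had at least 50 cells in each library and were compared: hepatoma (1888 control and 2041 treated cells), CD8 T (2596 and 1937), conventional CD4 T (233 and 142), regulatory T (93 and 61), NK (83 and 84), neutrophil (132 and 1129), macrophage (117 and 347), monocyte (67 and 139) and conventional dendritic (77 and 52). Defining markers of each of these types had UMIs in it in both libraries, but the gates used the same lists, so this does not check the types. Of 10 hepatoma markers 6 in the control and 8 in the treated library were highest in hepatoma cells. Of 7 monocyte markers 5 and 6 were highest in monocytes. Lists particular to the other types were highest there throughout. Bsg RNA in hepatoma cells was 998 CPM (counts of the gene per 1000000 UMIs of the type) in the control and 1010.3 CPM in the treated library, and the agent acts on the protein, so this RNA does not check the label. The 2 libraries shared 24 barcodes. No difference between the groups could be tested, since each is a single library. The 95% intervals below describe the counting of molecules and say nothing of variation among mice or tumours. CPM is a share of a cell's RNA, so a gene's level is compared between types and libraries as that share.

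Several members lie side by side in the mouse genome (GENCODE M21, GRCm38). Tnfrsf4 and Tnfrsf18 are 9.55 kb apart on chromosome 4, Tnfsf13 and Tnfsf12 are 466 bp apart on chromosome 11, and Tnfrsf26, Tnfrsf22 and Tnfrsf23 follow each other on chromosome 7 with gaps of 6.08 kb and 16.1 kb. RefSeq start-site windows (GRCm38.p6) were found for 24 of the members, in 28 windows, and the 250 bases before each start were searched on both strands for the NF-kB consensus and for the AP-1 sequence TGANTCA. The NF-kB consensus was found in 2 of the 28 windows, against 3.9% of all 32851 windows of the same length. AP-1 was found in 5 of 28, against 6.75%. The windows with the NF-kB consensus belong to Tnfrsf9 and Tnfrsf8, and each also held an AP-1 match. In Tnfrsf9 these lie only before its second start, where 2 overlapping NF-kB matches span bases 43 to 33 before the start and AP-1 bases 15 to 9. A match is a string of letters, not a measured binding site.

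Windows that overlap no annotated exon are shown for 4 members whose levels are described below: Tnfrsf8, a receptor of regulatory T cells and neutrophils here, the T and NK cell receptor Tnfrsf9 (its first start), the CD4 T cell ligand Tnfsf11, and the neutrophil receptor Tnfrsf23. Each is written 5′ to 3′ on the gene's strand and ends at the base before the start, and capitals mark NF-kB and AP-1 matches. The counts come from one end of each transcript and do not tell which start was used.
Tnfrsf8, chr4:145315165-145315414, minus strand: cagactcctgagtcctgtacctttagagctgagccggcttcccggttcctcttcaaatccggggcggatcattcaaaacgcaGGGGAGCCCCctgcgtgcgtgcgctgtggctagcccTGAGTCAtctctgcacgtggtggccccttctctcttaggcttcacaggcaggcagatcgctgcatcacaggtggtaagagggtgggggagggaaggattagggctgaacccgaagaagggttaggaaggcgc
Tnfrsf9, chr4:150919905-150920154, plus strand: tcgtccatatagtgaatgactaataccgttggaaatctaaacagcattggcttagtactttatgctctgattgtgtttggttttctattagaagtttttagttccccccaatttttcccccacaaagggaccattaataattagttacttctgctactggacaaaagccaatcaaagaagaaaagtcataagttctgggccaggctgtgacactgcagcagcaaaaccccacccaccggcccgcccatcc
Tnfsf11, chr14:78308044-78308293, minus strand: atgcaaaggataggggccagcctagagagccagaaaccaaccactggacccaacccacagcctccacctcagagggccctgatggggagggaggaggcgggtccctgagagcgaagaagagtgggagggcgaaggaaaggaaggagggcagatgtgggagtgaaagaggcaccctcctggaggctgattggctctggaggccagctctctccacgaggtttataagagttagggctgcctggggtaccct
Tnfrsf23, chr7:143685876-143686125, minus strand: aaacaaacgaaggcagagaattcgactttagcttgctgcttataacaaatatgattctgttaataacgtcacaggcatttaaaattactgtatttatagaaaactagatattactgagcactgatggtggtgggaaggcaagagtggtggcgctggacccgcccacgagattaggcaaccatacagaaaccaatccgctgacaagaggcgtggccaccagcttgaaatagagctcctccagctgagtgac

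Each member's level in each compared type is drawn below for both libraries. Of the 29 members with at least 100 UMIs over the 9 types, 22 had the same highest type in both libraries.

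**Figure D1:**
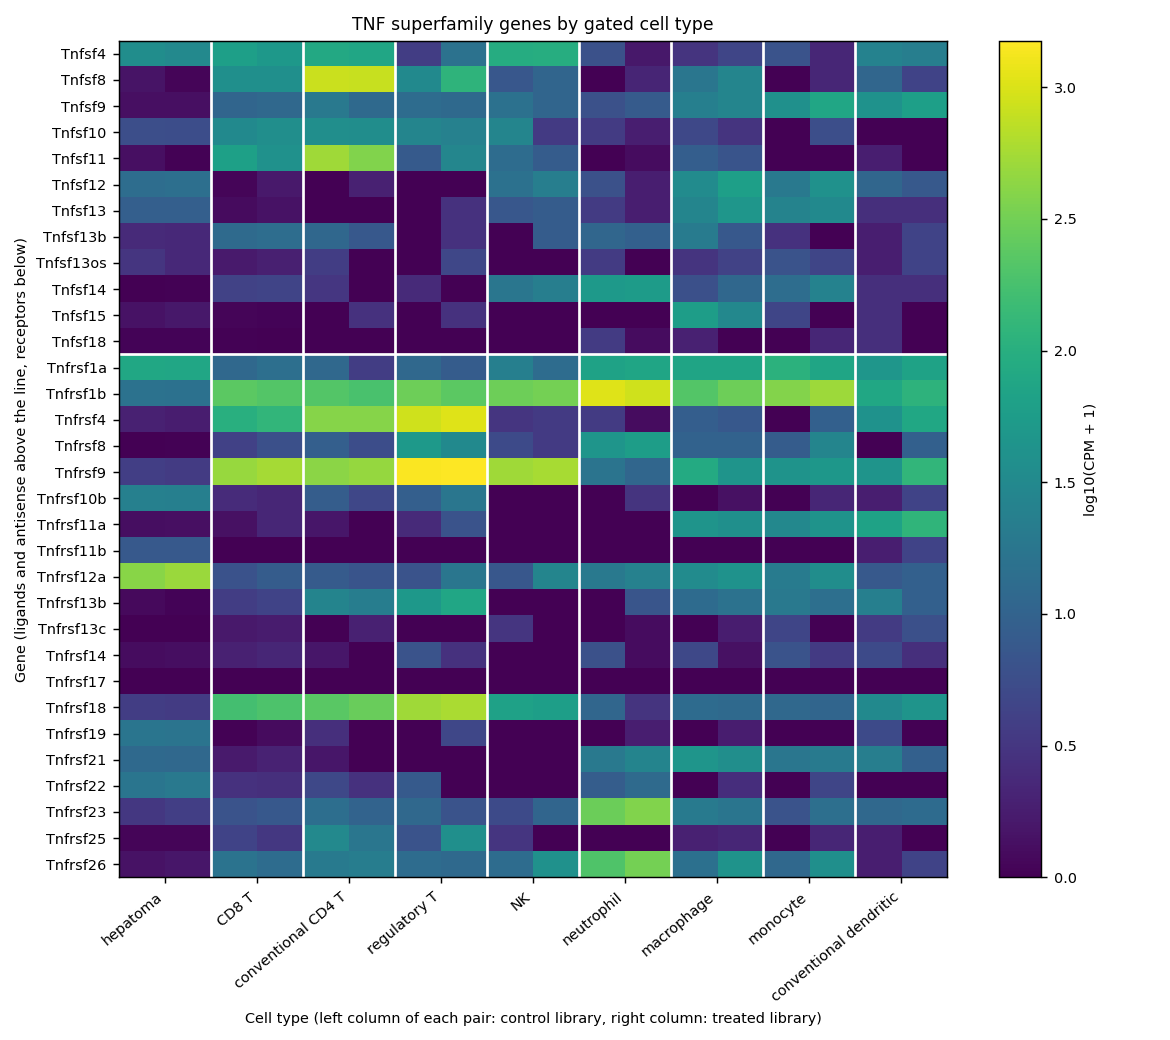
Level of each of the 32 members (rows, ligands and the antisense RNA above the white line, receptors below) in the 9 compared types (columns, control left and treated right in each pair), as log10(CPM + 1) of summed UMIs. Tnfrsf4, Tnfrsf9 and Tnfrsf18 are brightest in regulatory T cells, Tnfsf8 and Tnfsf11 in conventional CD4 T cells, Tnfrsf12a in hepatoma cells and Tnfrsf1b, Tnfrsf23 and Tnfrsf26 in neutrophils.

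The costimulatory receptors were held by T and NK cells, with regulatory T cells highest. Tnfrsf9 (CD137) stood at 1440.2 CPM in control and 1501 CPM in treated regulatory T cells. It was 532 and 581 CPM in NK cells, 485 and 563 CPM in CD8 T cells, and 423 and 472 CPM in conventional CD4 T cells. Regulatory T cells were thus 2.71 and 2.59 times the next type, and NK and CD8 T cells overlapped in their intervals in both libraries. In hepatoma cells the same RNA was at 2.90 and 2.60 CPM. These cells were far deeper, with medians of 46943 and 44025 UMIs against 6502.5 and 6514 in CD8 T cells. Their level is therefore no baseline for low values in shallower types.

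Tnfrsf4 (OX40) separated the T cell types more widely. It was 894 CPM in control and 1044 CPM in treated regulatory T cells, 393 and 399 CPM in conventional CD4 T cells, and 100.1 and 122 CPM in CD8 T cells. In NK cells a single UMI was counted per library. OX40 was therefore ordered regulatory T, conventional CD4 T and CD8 T in both libraries, with no overlap of intervals between neighbours. Tnfrsf18 (GITR), its neighbour on chromosome 4, kept that order at 532 and 600.2, 233 and 283, and 169 and 192 CPM, and NK cells held 63.9 and 59.1 CPM.

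Other receptors of lymphocytes were scarcer. Tnfrsf13b (TACI), a receptor of the ligands BAFF and APRIL, was highest in regulatory T cells among compared types at 47.8 and 74.3 CPM, on 35 and 40 UMIs. Tnfrsf8 (CD30) was at 50.5 and 31.6 CPM in regulatory T cells and at 43.9 and 57.3 CPM in neutrophils, with overlapping intervals, so the order of the 2 types is not settled. Tnfrsf25 (DR3), a death domain receptor that also costimulates T cells, was highest in control conventional CD4 T cells at 30.7 CPM and in treated regulatory T cells at 37.2 CPM. These rest on 56 and 20 UMIs.

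Conventional CD4 T cells were the main holders of a pair of ligands. Tnfsf8 (CD30 ligand) was at 847 and 808 CPM there, against at most 37.6 CPM in any other compared type of the control and 115 CPM in treated regulatory T cells. Tnfsf11 (RANK ligand) was at 522 and 377 CPM, against 63.4 and 38.9 CPM in CD8 T cells, the next type in both libraries. About as many cells held each: 143 of 233 control and 92 of 142 treated conventional CD4 T cells had a UMI of Tnfsf8, and 142 and 76 had one of Tnfsf11.

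**Figure D2:**
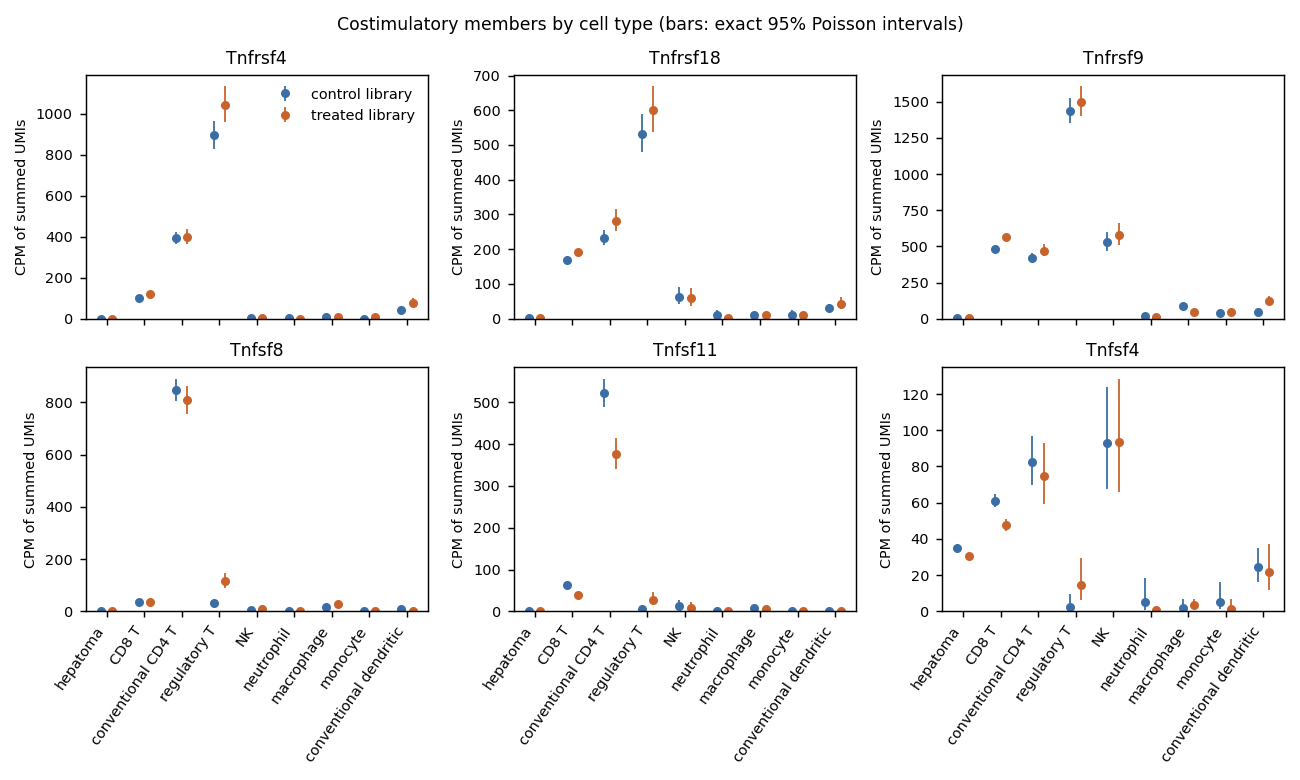
CPM of summed UMIs (vertical axes, each with its own range) of 3 costimulatory receptors and 3 T cell ligands in the 9 compared types, control in blue and treated in orange, with exact 95% Poisson intervals as bars. Regulatory T cells are highest for Tnfrsf4, Tnfrsf18 and Tnfrsf9, conventional CD4 T cells for Tnfsf8 and Tnfsf11, and NK and conventional CD4 T cells overlap for Tnfsf4.

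Tnfsf4 (OX40 ligand) was spread over lymphocytes and tumour cells. It was 92.8 and 93.5 CPM in NK cells, 82.7 and 74.6 CPM in conventional CD4 T cells, 61.1 and 47.8 CPM in CD8 T cells and 35.3 and 30.3 CPM in hepatoma cells. NK and conventional CD4 T cells did not differ beyond counting error, and dendritic cells, a classical source of this ligand, held 24.4 and 21.8 CPM. Tnfsf10 (TRAIL), which kills cells through death receptors, was at 35.6 and 35.4 CPM in conventional CD4 T cells and 30.8 and 36.2 CPM in CD8 T cells, whose intervals overlapped.

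Hepatoma cells were highest for a small set of receptors. Tnfrsf12a (Fn14), the receptor of TWEAK, was at 408 CPM in the control and 495 CPM in the treated library, on 38893 and 48804 UMIs, and macrophages came next at 33.5 and 40.5 CPM. In the 5 hepatoma clusters with at least 50 cells in each library it ranged from 234 to 514 CPM in the control and from 243 to 575 CPM in the treated library. Its level was thus above that of every other compared type in each of those clusters. Tnfrsf10b (DR5), the mouse death receptor of TRAIL, was at 23.0 and 22.4 CPM in hepatoma cells. Tnfrsf19 (TROY) was at 16.2 and 15.9 CPM there, Tnfrsf22, a decoy receptor of TRAIL, at 16.2 and 18.1 CPM, and Tnfrsf11b (osteoprotegerin), the soluble decoy of RANK ligand, at 6.79 and 6.63 CPM. Few cells held Tnfrsf11b: 76 of 1888 control and 108 of 2041 treated hepatoma cells had a UMI. A single control cell held 108 of its 647 UMIs. Summed over these tumour cells, the ratio of treated to control of all 9 members that could be compared stayed under 1.5-fold. In 1 of the 5 clusters, of 274 control and 278 treated cells, Tnfsf4 was at 47.3 and 20.6 CPM and Tnfrsf22 at 20.3 and 38.5 CPM. The other clusters stayed under 1.5-fold for both genes. Tnfrsf11b passed 1.5-fold in some of those, at 1.46 and 4.62, 10.4 and 6.51, and 6.12 and 3.85 CPM. Over all hepatoma cells, a single control cell held 84 of 3361 UMIs of Tnfsf4. A single treated cell held 59 of 1786 UMIs of Tnfrsf22.

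Neutrophils held the receptors of the chromosome 7 group and of TNF. Tnfrsf23, another decoy receptor of TRAIL, was at 289 CPM in control and 375 CPM in treated neutrophils, and no other compared type passed 18.7 CPM. Tnfrsf26, a related receptor, was at 201 and 329 CPM in neutrophils, with at most 41.7 CPM elsewhere. Their neighbour Tnfrsf22 was highest in hepatoma cells, with neutrophils at 7.74 and 11.6 CPM. Transcripts of Tnfrsf22 and Tnfrsf23 have 25.5% and 26.6% of their 31-base stretches in common, so reads of either may have been misassigned or dropped, while Tnfrsf26 shares none with either. Tnfrsf1b (TNFR2), the receptor of TNF without a death domain, was 1039.8 and 883 CPM in neutrophils, and monocytes were next at 384 and 507 CPM. Tnfsf14 (LIGHT) was highest in neutrophils too, at 51.6 and 53.8 CPM.

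The death domain receptor of TNF, Tnfrsf1a, was found in tumour and myeloid cells. Hepatoma cells held 77.0 and 75.9 CPM, macrophages 69.9 and 70.5 CPM, neutrophils 67.1 and 72.7 CPM, monocytes 108 and 73.0 CPM, and dendritic cells 46.2 and 67.0 CPM. T and NK cells stayed at or under 22.7 CPM. Tnfrsf1b, in contrast, passed 180 CPM in every T and NK type of both libraries, though neutrophils were its highest type.

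Macrophages, monocytes and dendritic cells held most of the remaining ligands. Tnfsf12 (TWEAK) was highest in macrophages at 33.5 and 60.7 CPM. Tnfsf13 (APRIL), its neighbour on chromosome 11, stood at 26.6 and 45.8 CPM, close to monocytes at 25.6 and 31.6 CPM. Tnfsf13os overlaps Tnfsf13 and part of Tnfsf12 on the other strand and had at most 5.49 CPM in any compared type. The labels and headers do not say whether the counting used strand, so the split of reads between Tnfsf13os and either ligand is uncertain.

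Tnfsf15 (TL1A) was almost restricted to macrophages, at 58.1 and 29.2 CPM against at most 3.66 CPM in any other compared type. It came from few of them: 15 of 117 control and 12 of 347 treated macrophages had a UMI. Tnfsf9 (CD137 ligand) was highest in control dendritic cells at 40.3 CPM and in treated monocytes at 74.2 CPM, and the 2 types overlapped in both libraries. Tnfsf13b (BAFF) was at 19.7 CPM in control macrophages and at 12.5 CPM in treated CD8 T cells, its highest types. Tnfrsf11a (RANK) was highest in dendritic cells at 66.3 and 119 CPM. Macrophages at 43.3 and 36.8 CPM and monocytes at 29.3 and 41.4 CPM followed, with overlapping intervals. Tnfrsf21 (DR6) was highest in macrophages at 44.3 and 36.4 CPM.

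The remaining members were at or near 0 in the compared types. Tnfsf18 (GITR ligand) had 13 UMIs in the control and 9 in the treated library over all 9 types, and Tnfrsf17 (BCMA) had 2 in each. Tnfrsf13c (BAFF receptor) did not pass 5.03 CPM, and Tnfrsf14 (HVEM) did not pass 5.49 CPM. At these counts no order of types can be read.

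Ligands and receptors were then paired. A type held a gene if it had at least 10 CPM and 10 UMIs in each library and at least 5% of the level of the highest type. Over 15 known pairs, 61 ordered combinations of a ligand-holding and a receptor-holding type resulted. CD137 ligand and CD137 gave 16, from conventional CD4 T cells, macrophages, monocytes and dendritic cells to CD8 T, conventional CD4 T, regulatory T and NK cells. OX40 ligand and OX40 gave 15, from 5 types that include hepatoma cells to the 3 T cell types. Conventional CD4 T cells thus held both partners of each of these pairs, and CD8 T cells both of the OX40 pair. For CD137 ligand the holding rule cut between similar levels. Conventional CD4 T cells had 18.1 and 11.2 CPM, on 33 and 12 UMIs. Regulatory T cells at 12.3 and 11.1 CPM, on 9 and 6 UMIs, and CD8 T cells at 9.73 and 10.8 CPM fell short of the rule.

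Other pairs ran between lineages. RANK ligand, held by CD8 and conventional CD4 T cells, met RANK in macrophages, monocytes and dendritic cells, with no type holding both. CD30 ligand of conventional CD4 T cells met CD30 in regulatory T cells and neutrophils. TRAIL, held by the 3 T cell types, met its death receptor only in hepatoma cells among the compared types. That follows from the holding rule: the next type stood at 8.19 CPM in the control and 16.7 CPM in the treated library. Hepatoma cells were at 23.0 and 22.4 CPM. TL1A of macrophages met DR3 in conventional CD4 T cells. TWEAK and Fn14 were both held by hepatoma cells and by macrophages. APRIL and TACI were both held by macrophages and monocytes.

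No compared type held the partner in several cases. GITR was held by 5 types and its ligand by none, LIGHT was held by neutrophils and its receptor HVEM by none, and BAFF receptor, BCMA and osteoprotegerin were held by none. RNA in 2 types does not show that the proteins met, and a ligand held by a type outside the 9 is not counted.

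**Figure D3:**
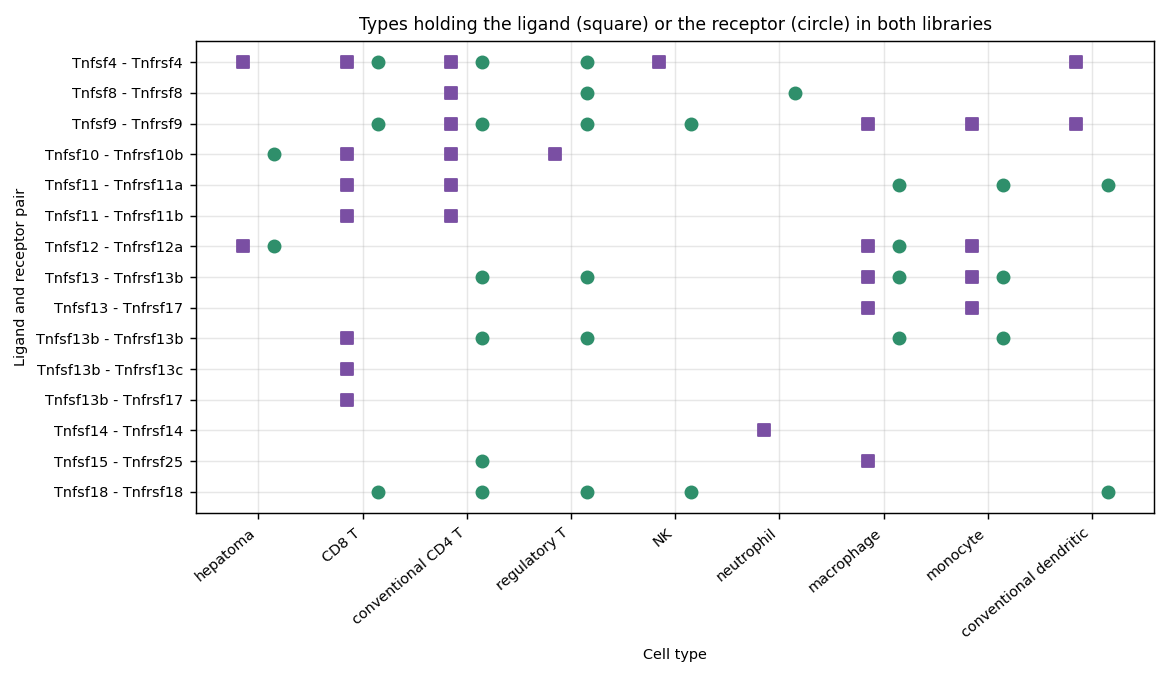
The 15 known ligand and receptor pairs (rows) and the 9 compared types (columns), with a square where a type held the ligand and a circle where it held the receptor in both libraries. GITR (Tnfrsf18) has 5 circles and no square, and the TRAIL receptor Tnfrsf10b has its only circle in hepatoma cells.

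Within CD8 T cells, members differed between cells of an exhausted and of a naive or memory programme. The exhausted gate asked for at least 3 of 5 genes (Pdcd1, Havcr2, Lag3, Tox, Entpd1) and held 1101 control and 939 treated cells. The naive or memory gate asked for at least 2 of 4 others (Tcf7, Lef1, S1pr1, Il7r) and held 325 and 191 cells. Each gate also allowed at most 1 gene of the other list, so cells with more of both lists entered neither gate. Neither list contains a member. Exhausted cells were deeper, with medians of 7211 and 7473 UMIs against 4937 and 4891, and asking for 3 markers favours deep cells.

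Tnfrsf9 was 618 against 134 CPM between these gates in the control and 676 against 135 CPM in the treated library. Tnfrsf4 was 118 against 42.3 CPM and 129 against 38.7 CPM, and Tnfsf4 57.6 against 19.0 CPM and 45.01 against 23.6 CPM. All 3 were thus higher in the exhausted gate of both libraries, with intervals apart. Tnfsf10 was higher there too, at 33.2 against 12.5 CPM and 42.4 against 15.1 CPM. Tnfrsf18 differed less, at 176 against 144 CPM in the control and 194 against 162 CPM in the treated library, where the intervals overlapped.

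The chromosome 7 receptors went the other way. Tnfrsf26 was at 3.93 CPM in exhausted and 67.2 CPM in naive or memory cells of the control, and at 3.35 and 71.7 CPM in the treated library. Tnfrsf23 was at 2.34 against 19.0 CPM and 2.89 against 17.0 CPM. Both were lower in exhausted cells of each library, although neutrophils were their highest type overall. Tnfrsf25 followed in the control at 0.637 against 14.1 CPM, but the treated values of 0.692 and 2.83 CPM rest on 6 and 3 UMIs. Tnfsf8 was lower in exhausted cells as well, at 17.7 against 61.8 CPM and 14.8 against 119.9 CPM. Few naive or memory cells carried it, 24 of 325 in the control and 18 of 191 in the treated library.

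**Figure D4:**
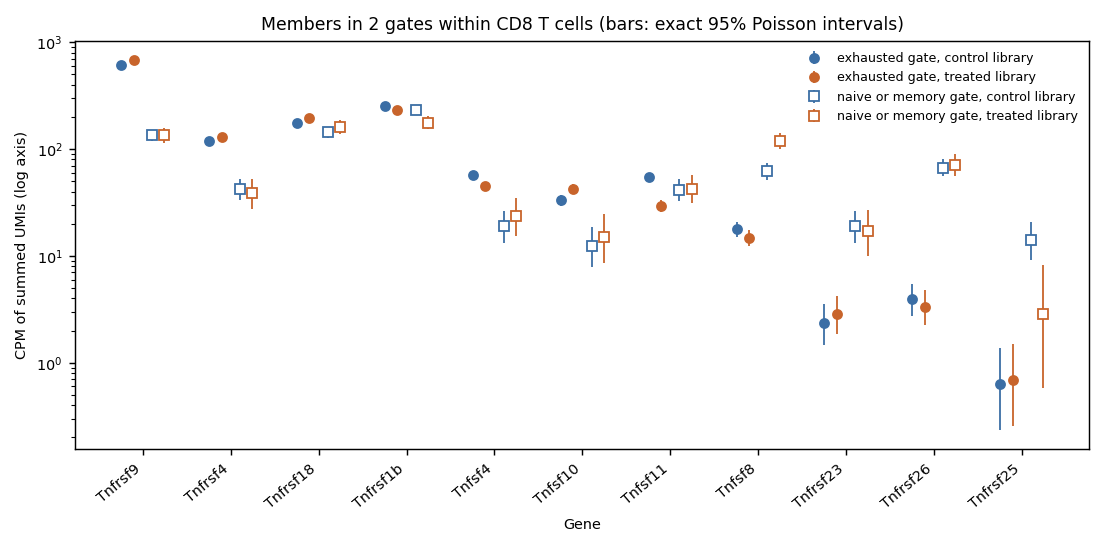
CPM of summed UMIs (log axis) of 11 members in CD8 T cells of the exhausted gate (filled circles) and of the naive or memory gate (open squares), control in blue and treated in orange, with exact 95% Poisson intervals. Tnfrsf9, Tnfrsf4, Tnfsf4 and Tnfsf10 sit higher in the exhausted gate, Tnfsf8, Tnfrsf23 and Tnfrsf26 in the naive or memory gate of both libraries.

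Members were then compared between CD8 T cells with and without Tnfrsf9. Cells with at least 3000 UMIs, 2506 control and 1834 treated, were thinned to 3000 UMIs so that depth was equal, and shallower cells were left out. Tnfrsf4 was detected in 20.1% of control cells with Tnfrsf9 and in 11.9% of those without, and in 21.6% and 11.7% of treated cells. Tnfrsf26 was detected in 2.91% of control cells with Tnfrsf9 and 7.07% without, and in 1.89% and 6.69% of treated cells. Tnfrsf18 was detected in 40.2% of control cells with Tnfrsf9 and 27.0% without, and in 40.1% and 32.8% of treated cells. For these members the exact 95% intervals of the paired shares did not overlap in either library. For Tnfsf4 they were apart in the control, at 11.6% and 5.28%, but overlapped in the treated library, at 7.49% and 4.31%. Some members that differed between the gates did not split by Tnfrsf9. Tnfsf8 was at 4.15% and 4.43% in the control and 3.27% and 5.201% in the treated library, and Tnfsf10 at 8.65% and 9.24% and at 10.8% and 8.77%, all with overlapping intervals.

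Between the libraries, a member in a type could be compared where it had at least 100 UMIs over both and at least 10 CPM in one, which left 56 entries. A difference of at least 1.5-fold was counted. It was reached upward in treated cells by 6 entries (10.7%), against 4% of all 38903 gene entries, and downward by 3 (5.36%), against 5.06%. The other 47 entries, the costimulatory receptors of T and NK cells included, stayed under 1.5-fold.

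In macrophages 3 of 10 members were higher in the treated library, against 7.81% of genes, and 2 were lower, against 8.56%. TWEAK (Tnfsf12) went from 33.5 to 60.7 CPM, a log2 ratio of 0.86 (0.31 to 1.44). APRIL (Tnfsf13) went from 26.6 to 45.8 CPM, 0.78 (0.17 to 1.45). Tnfrsf26 went from 13.8 to 41.7 CPM, 1.60 (0.79 to 2.52), on 14 and 103 UMIs. Thus both ligands of the chromosome 11 pair were higher in treated macrophages, with the split of reads from Tnfsf13os uncertain for both.

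TL1A (Tnfsf15) went from 58.1 to 29.2 CPM in macrophages, a log2 ratio of -0.99 (-1.51 to -0.47). A single cell held 15 of its 59 control UMIs and another 19 of the 72 treated ones, and the log2 ratio was -2.35 as a mean over cells and -1.79 without macrophages that held a UMI of the T marker list. Tnfrsf9 went from 85.7 to 43.3 CPM, -0.98 (-1.41 to -0.56). The 10 members had a median log2 ratio of 0.14 in macrophages, against 0.02 for all genes. The macrophages also differed in their own markers: Gpnmb was at 249 and 901 CPM, Trem2 at 56.1 and 198 CPM and C1qa at 1873 and 1199.7 CPM, and the part of this in the member values was not tested. Neutrophil markers, 11 in the list, summed to 243 CPM in control and 176 CPM in treated macrophages, against 45586 and 39722 CPM in neutrophils, and their part in the Tnfrsf26 value was not tested.

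T cell RNA was present in macrophages: 9 of 9 markers of the T list had UMIs, 149 CPM in the control and 168 CPM in the treated library in sum, against 3893 and 4641 CPM in CD8 T cells. Cd3e was at 11.8 and 10.5 CPM in macrophages and at 318 and 319 CPM in CD8 T cells, and NK cells, which held Tnfrsf9 as well, had Cd3e at 6.18 and 4.92 CPM. The part of lymphocyte RNA in the macrophage level of Tnfrsf9 was not tested. Without macrophages that held any UMI of the T list the log2 ratio of Tnfrsf9 was -1.08.

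In dendritic cells 2 of 3 members were higher in the treated library, against 7.62% of genes, and none was lower, against 9.18%. Tnfrsf9 went from 43.7 to 122 CPM, a log2 ratio of 1.49 (0.95 to 2.03). Its direction was opposite to that in macrophages. The treated value came from 19 of 52 cells, 1 of which held 21 of the 73 UMIs, and the log2 ratio was 1.26 without the cell with the most UMIs in each library. RANK (Tnfrsf11a) went from 66.3 to 119 CPM, 0.84 (0.36 to 1.32), but the log2 ratio was 0.20 when types were taken from named clusters in place of gates.

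The dendritic cells of the 2 libraries differed in their own markers. Clec9a and Xcr1, which mark the cross-presenting kind, were at 175 and 25.1 CPM and at 111 and 53.6 CPM, while Il12b was at 172 and 251 CPM and Cacnb3 at 53.8 and 111 CPM. All 9 T list markers had UMIs in these cells, 156 CPM in the control and 83.8 CPM in the treated library in sum. Their part in the 2 differences was not tested. Leaving out cells with a T list UMI left 49 control and 38 treated cells, under the 50 asked of a compared type, and among these the log2 ratio was 2.01 for Tnfrsf9 and 0.51, under 1.5-fold, for Tnfrsf11a.

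In CD8 T cells RANK ligand (Tnfsf11) went from 63.4 to 38.9 CPM, a log2 ratio of -0.70 (-0.84 to -0.57). It was the only 1 of 12 members past 1.5-fold, against 0.562% of genes lower and 1.1% higher. In the exhausted gate it was at 55.003 and 29.3 CPM, and in the naive or memory gate at 41.7 and 42.5 CPM. The difference between these gates was not tested. Conventional CD4 T cells, its highest type, had a log2 ratio of -0.47 (-0.64 to -0.30), in the same direction but under 1.5-fold.

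In neutrophils Tnfrsf26 went from 201 to 329 CPM, a log2 ratio of 0.71 (0.38 to 1.06), 1 of 6 members, against 9.4% of genes higher and 15.1% lower. Tnfrsf23 beside it had 0.38 (0.10 to 0.67). The neutrophils differed in their markers too, with Retnlg at 2462 and 714 CPM and Stfa2l1 at 276 and 619 CPM, and the part of this was not tested.

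**Figure D5:**
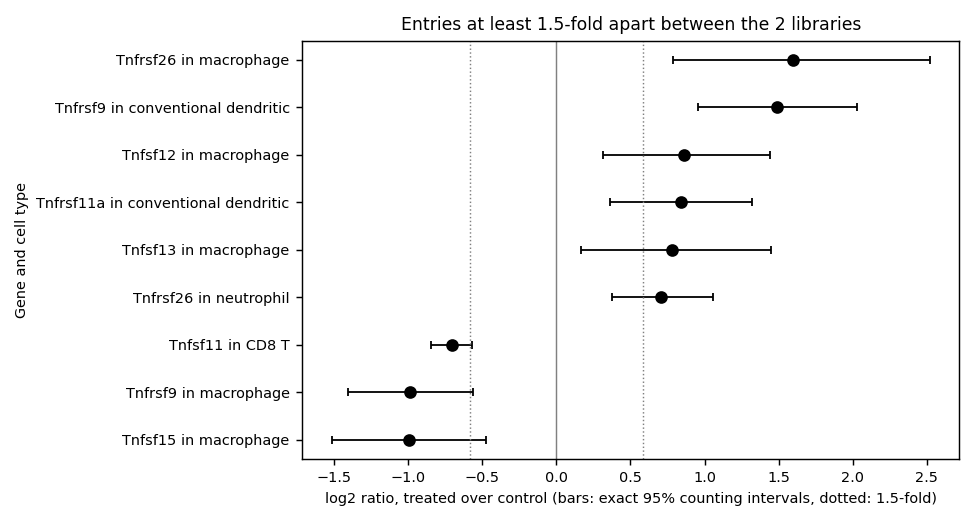
The 9 entries of a member and a type that differed by at least 1.5-fold (dotted lines), as log2 ratio of treated over control CPM with exact 95% counting intervals. Tnfrsf26 in macrophages has the highest ratio, 1.60, and Tnfsf15 in macrophages the lowest, -0.99, and Tnfrsf9 appears on both sides.

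In the other 5 types no member passed 1.5-fold. The shares of all genes that did were 0.158% higher and 0.17% lower in hepatoma cells, 2.21% and 4.24% in conventional CD4 T cells, 3.76% and 7.52% in regulatory T cells, 3.23% and 3.85% in NK cells, and 11.1% and 9.98% in monocytes. Several ratios under 1.5-fold had counting intervals that lay wholly above or below no difference. These intervals treat UMIs as independent and say nothing of variation among cells, mice or tumours. Fn14 (Tnfrsf12a) in hepatoma cells had a log2 ratio of 0.28 (0.26 to 0.30), OX40 in CD8 T cells 0.29 (0.20 to 0.38) and CD137 in CD8 T cells 0.22 (0.17 to 0.26). OX40 ligand was lower in CD8 T cells at -0.36 (-0.49 to -0.22). A single control cell held 110 of its 1244 UMIs there, and the log2 ratio was -0.28 without the cell with the most UMIs in each library.

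Family genes without the prefix, the adaptors and NF-kB genes were read from a list of 39. They gave 188 entries, of which 8 were at least 1.5-fold higher in treated cells and 11 lower, beside the 4% and 5.06% of all entries. Tnf itself was highest in neutrophils, at 1912 and 1521 CPM, where its receptor Tnfrsf1b was highest as well. It was higher in the treated library in CD8 T cells (31.3 and 49.8 CPM, log2 ratio 0.67) and in conventional CD4 T cells (29.0 and 51.3 CPM, 0.82). Cd40, a receptor through which T cells activate myeloid cells, was lower in treated macrophages (96.5 and 49.0 CPM, -0.98), and Cd70, the ligand of CD27, in treated conventional CD4 T cells (45.5 and 25.2 CPM, -0.85).

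Among signalling genes, those higher in treated dendritic cells were the adaptor Traf1 (log2 ratio 0.70), the kinase Ripk1 (0.63) and the NF-kB inhibitors Tnfaip3 (0.70) and Nfkbia (0.98). These were 4 of the 20 related genes compared in that type, beside 7.62% of all genes. In neutrophils Ikbkb was higher (0.79) and Ltb (-0.61), Traf3 (-0.89) and Map3k14 (-1.01) lower. In macrophages Traf5 was lower (-1.02), in monocytes Nfkb2 was higher (0.74) and Birc3 lower (-0.84), in regulatory T cells Casp8 (-0.60) and Birc3 (-0.59) were lower, and in conventional CD4 T cells Traf4 (-0.59) and Traf5 (-0.68).

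The better known relatives fell into types as follows. Ltb was highest in regulatory T cells (479 and 591 CPM), as was Cd27 (295 and 227 CPM). Cd40lg (53.7 and 47.6 CPM), Cd70 and Lta (18.6 and 12.1 CPM) were highest in conventional CD4 T cells. Fasl was highest in NK cells (103 and 111 CPM), Fas in neutrophils (181 and 193 CPM) and Ltbr in hepatoma cells (68.8 and 67.0 CPM). Cd40 was highest in control monocytes at 172 CPM and in treated dendritic cells at 132 CPM.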

How the data were processed

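The authors deposited UMI counts, without normalization, for each gene and barcode. The submitters' processing notes name Cell Ranger 3.0.2 and mm10, and the file headers Cell Ranger 7.1.0. No annotation release is named in the sources used here. The members and lists were chosen with earlier results of these data known. Gate thresholds, the CD8 gates, the removal of 4 monocyte genes that T cells share, the cluster naming, the thinning for pairs of genes and the motifs were set after seeing the data.

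Barcodes were kept with at least 500 UMIs, 300 genes and at most 15% mitochondrial UMIs, and those with the highest scrublet scores (scanpy 1.11.5) were removed at 0.8% per 1000 barcodes, since the automatic threshold marked 1 control barcode. This removed 402 control and 535 treated barcodes and kept 6689 and 7641. Cells passing the gates of more than 1 lineage (1.85% and 5.81%) and of none (9.73% and 9.12%) entered no type. UMIs were summed per library and type as CPM, with exact Poisson intervals and exact conditional binomial intervals for ratios, and Clopper-Pearson intervals for shares of cells. A zero stood as 3 counts in a ratio. The ratio step was tested on simulated data. 1 gene of the planned naive or memory list is not reported here and was not used in that gate. All members are accounted for, those near 0 by their UMIs or their upper level, with every entry past 1.5-fold named.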

Additional observations from a re-analysis of the deposited data

Results flagged for a closer look

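Tnfrsf9 differed between the libraries in opposite directions in 2 myeloid types: its log2 ratio of treated over control was -0.98 in macrophages and 1.49 in conventional dendritic cells. The difference between the 2 ratios was not tested, since each group was 1 library. In both types the level was far below that of regulatory T cells.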

How the results depend on the processing

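No paired analysis was possible because each group was 1 library, and for the same reason no replicate could be left out. Members at least 1.5-fold higher in treated cells numbered 10 with types from named clusters, in place of 6, and 16 where 30 UMIs sufficed, and those lower numbered 5 as a mean over cells of CPM, in place of 3, and 10 where 30 UMIs sufficed. The holding pairs numbered 40, in place of 61, when a type had to reach 20% of the highest type. A gate with 1 more marker left 51 and 28 dendritic cells, and leaving out those with a T list UMI 49 and 38, so the counts of members leave that type out there, while the ratios that follow include it. Of 328 values of the 40 named ratios under alternatives, 317 stayed inside the main counting interval, 11 did not, and 0 of the ratios past 1.5-fold changed sign. Those past 1.5-fold stayed so in every alternative run, except Tnfrsf11a in dendritic cells, in 7 of 9. Some alternatives could hardly move a ratio. Leaving out barcodes shared by both libraries removed no macrophage, monocyte or dendritic cell, so the ratios there were the main ones again. Tnfsf15 in macrophages ranged from -2.35 (mean over cells) to -0.92. Leaving out myeloid cells with a T list UMI, and the cell with the most UMIs of a member, was chosen after seeing the data. With those myeloid cells left out, 3 of the 6 higher and 1 of the 3 lower entries were still counted under the rule for entries. Few cells limit several types: the smaller library held 52 dendritic, 61 regulatory T, 67 monocyte, 83 NK and 117 macrophage cells.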

Other observations

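Types with under 50 cells in a library held some members at high levels and were not compared. In B cells (32 control and 18 treated cells) the BAFF receptor Tnfrsf13c was at 253 and 92.2 CPM, on 36 and 10 UMIs. Mast cells or basophils (21 and 30 cells) held TRAIL (Tnfsf10) at 66.5 and 47.2 CPM, LIGHT (Tnfsf14) at 49.9 and 100.2 CPM and Tnfrsf9 at 83.1 and 141 CPM. Fibroblasts or mural cells (20 and 38 cells) held Fn14 (Tnfrsf12a) at 284 and 223 CPM, above every compared type but hepatoma cells, and osteoprotegerin (Tnfrsf11b) at 29.0 and 39.0 CPM.

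Barcodes that passed both the T and the monocyte or macrophage gate numbered 32 in the control and 272 in the treated library and were kept out of every type. They held Tnfrsf9 at 336 and 363 CPM. Tnfrsf18 was at 64.0 and 106 CPM, on 45 and 349 UMIs, and Tnfrsf4 at 39.8 and 88.3 CPM, on 28 and 291 UMIs. Some members were lower in the treated library. Tnfsf15 was at 81.0 and 9.41 CPM, on 57 and 31 UMIs, and Tnfrsf21 at 39.8 and 15.2 CPM, on 28 and 50 UMIs.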
